A study of Homo sapiens with 21 samples.

Results

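CRT35 is a culture of A375 melanoma cells that tolerated a BRAF inhibitor and a MEK inhibitor in a mouse. Its transcriptome without inhibitors was compared with that of the A375 parental line from which it descends. All libraries carrying these labels were used, 3 of CRT35 DMSO and 3 of A375 parental, which makes 6 of the 21 libraries in the series. A375 is an established human melanoma line with an activating BRAF mutation. CRT35 came from an A375 tumor grown in a mouse treated with a BRAF inhibitor and a MEK inhibitor, and the culture was kept in 1 µM PLX4720 (BRAF inhibitor) and 35 nM PD0325901 (MEK inhibitor). CRT35 DMSO cells received the solvent DMSO in place of both inhibitors, for a time that is not given in the sources used here. A375 parental cells are labelled with no treatment, so an effect of DMSO and a difference between the lines cannot be told apart. CRT35 is a single line, and A375 cells taken from a mouse that had no inhibitor were not analysed here, so passage through the animal, tolerance and the history of this line cannot be told apart either. Whether reads from mouse cells were removed before alignment is not stated in the sources used here. The remaining groups, with 3 libraries each, serve only to show where CRT35 DMSO differs: CRT35 Combo and CRT34 Combo (CRT35 and CRT34, a second tolerant line, on both inhibitors), CRT34 DMSO, and gSOX10 #2 and gSOX10 #4 (A375 clones in which CRISPR guides disrupted SOX10).

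SOX10 is a transcription factor of the neural crest, the embryonic tissue that gives rise to melanocytes and to the Schwann cells of peripheral nerves. It keeps both lineages in place and switches on their genes, among them the pigment regulator MITF and the growth factor receptor ERBB3. Melanoma cells can leave this state for an undifferentiated, mesenchymal one with abundant extracellular matrix, other receptor tyrosine kinases and low pigment gene expression, and such cells are known to withstand BRAF and MEK inhibitors. The mutant BRAF of A375 cells signals through MEK to ERK, and DUSP6 and SPRY genes are transcribed as feedback inhibitors of ERK signaling.

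Values below are normalized counts, that is, estimated reads per gene divided by a size factor of the library. Changes are differences of log2(normalized count + 1), CRT35 DMSO minus A375 parental, so that a change of 1 is 2-fold, and a change between low values is understated. A gene was called changed at an adjusted p of 0.05 or less and at least a 2-fold change in limma. The study describes its in vitro samples in general as biological replicates, but how the CRT35 cultures were kept apart is not given in the sources used here, so the p-values measure only the spread between these libraries, which may be technical.

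SOX10, the gene disrupted in the CRISPR clones, had a normalized count of 0, 0 and 0 in the CRT35 DMSO libraries, against 10348, 11877 and 12822 in the A375 parental libraries (adjusted p = 8.32e-14). The transcript was thus not detectable at this depth in any of the 3 CRT35 DMSO libraries. In the CRISPR clones it remained at 452 ± 56.5 in gSOX10 #2 and 487 ± 30.6 in gSOX10 #4 (SD, n = 3 each). No fold is given for SOX10 or for other genes listed at 0 throughout a group. With bulk RNA, fewer cells that express a gene and less RNA per cell cannot be told apart.

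CRT35 DMSO replicate 1 was sequenced less deeply than the rest. The spacing of its lowest values places it near 27.2 M reads, against 59.8 to 75.5 M in the other 5 libraries of the comparison, although normalized totals were alike in all 21 libraries (59.2 to 68.3 M). It also had the highest value of the 3 CRT35 DMSO libraries for many matrix and cytokine genes named below. The part of depth in this was not tested. Across genes, log2 values correlated at 0.978 to 0.987 within CRT35 DMSO, at 0.985 to 0.988 within A375 parental, and at 0.898 to 0.918 between the groups.

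Of 19290 genes tested, 4572 (23.7%) were called, 3032 of them higher (15.7%) and 1540 lower (7.98%) in CRT35 DMSO than in A375 parental. The shares of 15.7% and 7.98% are the background for each list count below. The median change over all genes was 0.02. A change of at least 4-fold was seen for 1668 higher and 702 lower genes, and of at least 16-fold for 471 and 224. The direction of calls depended in part on the scaling: after quantile normalization 2520 genes were higher and 1984 lower, which moved the higher share from 66.3% to 56.0% of calls. Without CRT35 DMSO replicate 1 there were 4059 calls. The libraries of the groups did not overlap for 61.2% of all genes tested, so separation alone says little about any gene. None of 20 housekeeping genes was called by limma, although 10 of them had an unadjusted p under 0.05, and their median change was -0.07.

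**Figure D1:**
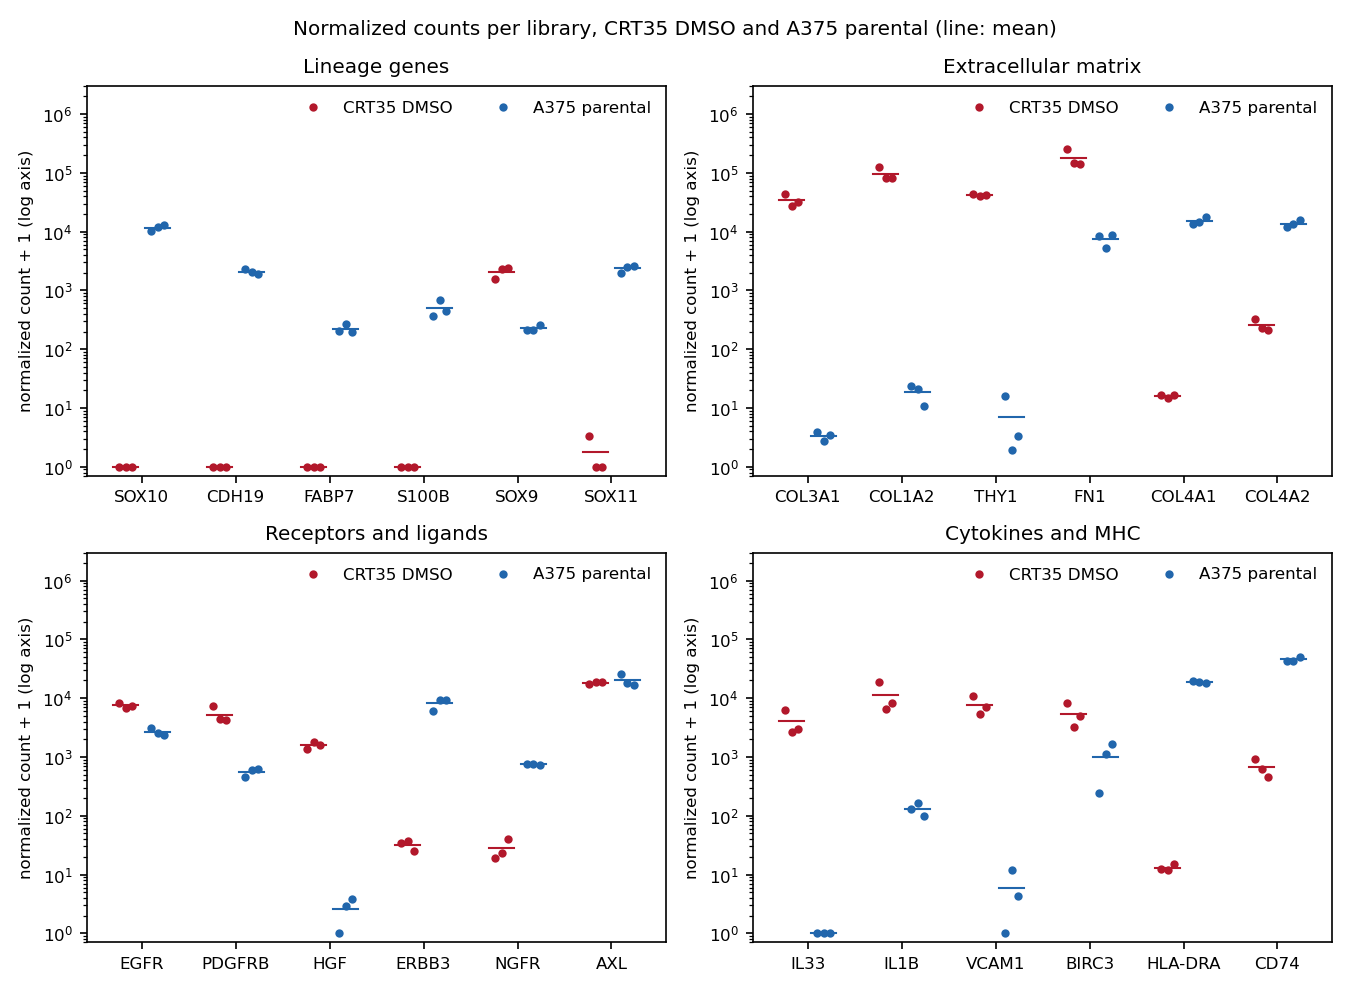
Normalized count plus 1 of each library on a log axis, for 24 genes in 4 panels, with CRT35 DMSO (red) left of A375 parental (blue); points are libraries and lines are means of 3. SOX10, CDH19 and S100B sit at 0 in all CRT35 DMSO libraries and IL33 at 0 in all A375 parental libraries, while the AXL points of the groups overlap.

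Promoter sequences are shown for some of the genes at which the groups differed plainly and for which a RefSeq entry was at hand. COL4A1 (which shares its promoter with COL4A2), CD74 and CDH19 were all far lower in CRT35 DMSO. IL33 was high in CRT35 DMSO and listed at 0 in A375 parental. COL4A1, COL4A2 and CD74 were chosen for this after their values were seen. Each sequence runs from 250 bases before to 50 bases after the transcription start on the gene's strand (RefSeq, GRCh38.p14). Both strands were searched for 6 motifs, of which none contains another. The motif ACAAAG is recognised by SOX factors in many promoters. The motif TGANTCA is the site of AP-1 dimers of JUN and FOS proteins. The E-box CACGTG is a site of MITF and MYC among other factors. The motif GGAATG is the site of TEAD factors, the DNA-binding partners of YAP. The last motifs were the TATA box, searched for as TATAAA, and the CCAAT box, searched for by the letters of its name. Matches are in capitals.
COL4A1 promoter, chr13:110307108-110307407, minus strand: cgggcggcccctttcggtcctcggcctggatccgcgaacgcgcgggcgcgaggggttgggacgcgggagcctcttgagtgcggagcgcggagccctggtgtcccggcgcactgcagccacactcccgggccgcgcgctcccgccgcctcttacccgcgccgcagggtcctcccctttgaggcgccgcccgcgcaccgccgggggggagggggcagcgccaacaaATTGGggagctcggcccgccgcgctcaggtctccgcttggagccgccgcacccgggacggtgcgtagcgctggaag
CD74 promoter, chr5:150412861-150413160, minus strand: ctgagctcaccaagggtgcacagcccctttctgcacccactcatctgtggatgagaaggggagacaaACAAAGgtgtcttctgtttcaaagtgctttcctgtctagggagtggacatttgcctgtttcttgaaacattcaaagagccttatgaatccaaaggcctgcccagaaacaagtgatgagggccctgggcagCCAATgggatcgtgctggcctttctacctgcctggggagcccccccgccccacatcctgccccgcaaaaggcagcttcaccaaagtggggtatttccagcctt
CDH19 promoter, chr18:66604041-66604340, minus strand: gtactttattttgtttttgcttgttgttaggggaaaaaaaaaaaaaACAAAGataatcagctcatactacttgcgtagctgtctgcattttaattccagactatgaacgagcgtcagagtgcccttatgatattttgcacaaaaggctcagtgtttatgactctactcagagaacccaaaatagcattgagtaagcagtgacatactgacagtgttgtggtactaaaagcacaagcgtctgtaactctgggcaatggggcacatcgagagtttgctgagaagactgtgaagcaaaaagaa
IL33 promoter, chr9:6214899-6215198, plus strand: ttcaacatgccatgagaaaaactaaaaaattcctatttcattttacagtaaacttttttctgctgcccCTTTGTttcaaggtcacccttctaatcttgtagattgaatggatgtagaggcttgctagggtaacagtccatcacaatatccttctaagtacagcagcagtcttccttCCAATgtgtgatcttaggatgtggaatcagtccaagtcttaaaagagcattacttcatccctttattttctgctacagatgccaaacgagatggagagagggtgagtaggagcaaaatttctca
COL4A1 and COL4A2 are transcribed away from each other on chromosome 13 from starts 127 bases apart, and their windows share 226 bases, including the single CCAAT box (ATTGG on the strand shown). The COL4A1 window holds 45 CpG dinucleotides, against 3 in that of CD74, 5 in that of CDH19 and 1 in that of IL33; the median over 35116 RefSeq promoters of this length is 14. CD74 and IL33 have a SOX motif and a CCAAT box each, and CDH19 has a SOX motif. RefSeq gives IL33 a further start, whose window holds none of the 6 motifs. BDKRB1, the next highest gene listed at 0 in A375 parental, had an entry too. Its window, which is not shown, holds 4 CpG dinucleotides and none of the 6 motifs. Of all promoters, 16.1% hold the SOX motif, 7.71% the AP-1 motif, 7.26% the E-box, 14% the TEAD motif, 34.6% a CCAAT box and 11.5% a TATA box, so that single matches are common. Among protein-coding genes with a promoter window, the AP-1 motif was present in 8.69% of 1772 called higher, 5.31% of 923 called lower and 5.0% of all 11982 tested. The SOX motif was present in 13.6%, 12.5% and 11.3% of the same groups of genes, in that order. These are counts of letters, given without a test, and do not show binding.

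Neural crest and glial genes were among the steepest falls. Of 19 glial and Schwann cell precursor genes tested, 12 were lower and 2 higher, with a median change of -1.84 (-1.43 without the 4 genes listed at 0 in a group) against 0.02 over all genes. The cadherin CDH19, a marker of Schwann cell precursors, was listed at 0 in all 3 CRT35 DMSO libraries, against 2311, 2052 and 1895 in A375 parental (adjusted p = 1.47e-08). S100B, a calcium-binding protein used as a melanoma marker, was listed at 0 in CRT35 DMSO as well, against 365, 683 and 446 in A375 parental (adjusted p = 1.61e-10). FABP7, a fatty acid binding protein of glial precursors, was listed at 0 in CRT35 DMSO, against 207, 272 and 194 in A375 parental (adjusted p = 9.52e-11).

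ERBB3, the neuregulin receptor that Schwann cell precursors depend on, fell to 34, 35.9 and 24.4 in CRT35 DMSO, against 5993, 9355 and 9197 in A375 parental (log2 change -7.97, SE 0.51, adjusted p = 5.42e-10). NGFR, the low-affinity neurotrophin receptor of neural crest stem cells, fell to 18.4, 22.4 and 39.7 in CRT35 DMSO, against 760.4, 757 and 724 in A375 parental (log2 change -4.82, SE 0.40, adjusted p = 1.74e-08). GFRA1, the GDNF coreceptor, was among the members that rose (1114 ± 428 in CRT35 DMSO and 50.3 ± 18.8 in A375 parental, log2 change 4.42, adjusted p = 4.87e-06).

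Of 24 neural crest transcription factors tested, 9 (37.5%) were lower and 6 (25%) higher, with a median change of 0.11. Over all genes tested the shares were 7.98% and 15.7%. SOX11, an embryonic SOX factor, had 2.3, 0 and 0 in CRT35 DMSO, against 1959, 2492 and 2643 in A375 parental (log2 change -10.62, SE 0.54, adjusted p = 2.05e-11). TFAP2B, an AP-2 factor of the neural crest, was listed at 0 in CRT35 DMSO, against 479.9, 809 and 737 in A375 parental (adjusted p = 1.18e-12). LEF1, a transcriptional partner of beta-catenin, fell to 33.8, 61.4 and 49.3 in CRT35 DMSO, against 1594, 1706 and 1976 in A375 parental (log2 change -5.20, adjusted p = 8.94e-11). Other SOX genes were also lower, among them SOX2 (13.1 ± 6.16 in CRT35 DMSO and 782 ± 165 in A375 parental) and SOX5 (133 ± 39.9 in CRT35 DMSO and 9749 ± 1505 in A375 parental).

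The SOX family did not move as a block. SOX9, a factor of cartilage and stem cells that opposes SOX10 in melanoma models, rose to 1555, 2347 and 2370.4 in CRT35 DMSO, against 213, 214 and 261 in A375 parental (log2 change 3.16, SE 0.23, adjusted p = 3.95e-09). SOX4 rose as well (3081 ± 1126 in CRT35 DMSO and 741 ± 117 in A375 parental, log2 change 2.01, adjusted p = 5.14e-06). SNAI2, which drives neural crest delamination and is counted among EMT factors, had 1959.9, 1325 and 1622 in CRT35 DMSO, against 37.8, 40.3 and 31.5 in A375 parental (log2 change 5.44, SE 0.23, adjusted p = 1.72e-12). All CRT35 DMSO libraries lay far above all A375 parental libraries for SOX9, SOX4 and SNAI2.

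Most pigment cell genes were low or not called. Of 22 listed, 14 were expressed well enough to be tested, and 2 were higher and 2 lower, with a median change of 0.04. These shares, 14.3% each, stand beside 15.7% higher and 7.98% lower over all genes tested. Their summed level was 24113 to 25619.5 in CRT35 DMSO, against 67358 to 88293 in A375 parental. Most of that difference was SLC7A5, an amino acid transporter that other cell types also express, and without it the sums were 18649 to 19323 in CRT35 DMSO, against 19790.4 to 23930 in A375 parental. TYR, MLANA and SLC24A5, needed for melanin synthesis or carried by pigment organelles, were listed at 0 in all 6 libraries. MITF, the master regulator of melanocytes, was not called, with 1586, 1519 and 1587 in CRT35 DMSO and 1502, 1448 and 1390.0 in A375 parental (log2 change 0.11, SE 0.31, adjusted p = 0.798), although its groups did not overlap. EDNRB, the endothelin receptor of the melanocyte lineage, was lower (262 ± 62.3 in CRT35 DMSO and 636 ± 96.5 in A375 parental, log2 change -1.29, adjusted p = 9.74e-04), and so was SLC7A5, an amino acid transporter also used by many proliferating cells (5705 ± 632 in CRT35 DMSO and 53779 ± 9212 in A375 parental, log2 change -3.23, adjusted p = 3.81e-06). BCL2A1, an antiapoptotic target of both MITF and NF-kappaB, was higher (978 ± 312 in CRT35 DMSO and 7.13 ± 3.39 in A375 parental, log2 change 6.97, adjusted p = 4.17e-08).

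Fibrillar collagens showed some of the largest rises. Of 18 fibrillar and fibril-associated collagen genes tested, 12 were higher and 1 lower, with a median change of 3.12 against 0.02 over all genes. COL3A1, the chain of type III collagen, had 43850.0, 27161 and 31305 in CRT35 DMSO, against 2.83, 1.71 and 2.5 in A375 parental (log2 change 13.30, SE 0.32, adjusted p = 7.29e-16). COL1A2, which pairs with COL1A1 in type I collagen, had 126075, 82660.4 and 81751 in CRT35 DMSO, against 22.5, 20 and 9.96 in A375 parental (log2 change 12.40, SE 0.65, adjusted p = 3.59e-11). COL1A1 had 84923, 56351 and 61725 in CRT35 DMSO, against 117, 67.7 and 56.3 in A375 parental (log2 change 9.75, SE 0.52, adjusted p = 4.42e-11). In each of these genes the lowest CRT35 DMSO library was more than 100 times the highest A375 parental library.

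COL6A3, a chain of the beaded filaments of type VI collagen, was expressed in both groups and rose to 308384, 233616 and 214138 in CRT35 DMSO, against 2267, 1527 and 2097 in A375 parental (log2 change 7.01, SE 0.27, adjusted p = 3.77e-13). COL2A1, the cartilage collagen, was the member that fell, with 1.71, 0 and 0 in CRT35 DMSO, against 30.7, 51.4 and 93.8 in A375 parental (log2 change -5.27, SE 0.81, adjusted p = 3.65e-05). The CRISPR clones had little of them: COL3A1 averaged 26.7 in gSOX10 #2 and 7.62 in gSOX10 #4, and COL1A2 averaged 148 and 8.94, whereas CRT34 DMSO had 45587 ± 7184 for COL3A1 and 74051 ± 2288 for COL1A2 (SD, n = 3). The difference between CRT35 DMSO and CRT34 DMSO was not called for COL3A1 (log2 difference -0.44, SE 0.32, adjusted p = 0.415).

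Glycoproteins and proteoglycans of the matrix followed, with 17 of 25 tested members higher, 1 lower and a median change of 2.94. Fibronectin, FN1, which cells bind through integrins, had 256639, 144729 and 139845 in CRT35 DMSO, against 8314, 5365 and 8834 in A375 parental (log2 change 4.56, SE 0.32, adjusted p = 1.82e-09). Periostin, POSTN, a matricellular protein of scars and tumor stroma, had 21892, 8171 and 9799 in CRT35 DMSO, against 53, 55.1 and 42.6 in A375 parental (log2 change 7.89, SE 0.31, adjusted p = 4.60e-13). Thrombospondin 2, THBS2, had 11385, 6917 and 7738 in CRT35 DMSO, against 40.4, 56.9 and 35.2 in A375 parental (log2 change 7.58, SE 0.37, adjusted p = 1.30e-11). FBN1, the fibrillin of elastic microfibrils (log2 change 3.54, adjusted p = 1.31e-11), and IGFBP7 (log2 change 3.17, adjusted p = 1.85e-10) rose too. Thrombospondin 1, THBS1, went the other way, with 36664, 23435 and 23554 in CRT35 DMSO, against 146686, 95935 and 81443 in A375 parental (log2 change -1.94, SE 0.46, adjusted p = 0.0024).

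Enzymes that crosslink or cut the matrix were higher in 14 of 28 cases and lower in 2, with a median change of 1.32. LOXL1, a lysyl oxidase of elastic fibers, had 1802, 1191 and 1264 in CRT35 DMSO, against 11.5, 4.05 and 15.7 in A375 parental (log2 change 7.10, SE 0.55, adjusted p = 6.81e-09). MMP14, a membrane-bound collagenase, had 22183 ± 4660.0 in CRT35 DMSO and 2554 ± 268 in A375 parental (SD, n = 3 each, log2 change 3.10, adjusted p = 3.35e-09), and its inhibitor TIMP1 had 55711 ± 9829.6 in CRT35 DMSO and 8543 ± 567 in A375 parental (log2 change 2.69, adjusted p = 7.39e-09). SERPINB2, which was not on the list and encodes an inhibitor of the plasminogen activator urokinase, had 42767, 15407 and 23288 in CRT35 DMSO, against 1.05, 4.2 and 24.1 in A375 parental (log2 change 11.91, SE 0.93, adjusted p = 7.96e-09). LOXL4 (log2 change -2.03, adjusted p = 0.00169) and the protease inhibitor SERPINE2 (log2 change -3.07, adjusted p = 1.01e-04) fell. Among 17 integrins, 6 (35.3%) were higher and 3 (17.6%) lower, with a median change of 0.19, beside 15.7% and 7.98% over all genes. ITGA11, the alpha chain of a collagen I receptor, rose to 8468, 4315 and 5741 in CRT35 DMSO, against 56.6, 77 and 18 in A375 parental (log2 change 7.08, SE 0.36, adjusted p = 2.05e-11), and its partner ITGB1 rose to 104936 ± 1557 in CRT35 DMSO, against 32957 ± 2425 in A375 parental (log2 change 1.67, adjusted p = 2.13e-07). ITGA9 (log2 change -4.68, adjusted p = 5.53e-06) and ITGB8 (log2 change -3.94, adjusted p = 7.09e-06) fell.

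Basement membrane genes split. Of 22 tested, 12 were higher and 2 lower, with a median change of 1.07, and the lower ones were the paired genes COL4A1 and COL4A2, whose products form the commonest type IV collagen. COL4A1 had 15.8, 13.8 and 15.5 in CRT35 DMSO, against 13289, 14701 and 17579 in A375 parental (log2 change -9.88, SE 0.22, adjusted p = 2.69e-16). COL4A2 had 328, 227 and 211 in CRT35 DMSO, against 12106, 13316 and 15752 in A375 parental (log2 change -5.76, SE 0.24, adjusted p = 9.90e-13). The libraries within each group were close to each other for both genes and the groups lay far apart.

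No other group without inhibitors showed this loss. COL4A1 was at 13375 ± 1629 in gSOX10 #2, 12085 ± 2588 in gSOX10 #4 and 175767 ± 53871 in CRT34 DMSO (SD, n = 3 each), and CRT35 DMSO was called lower than each of them. With inhibitors CRT35 was also low, at 18.1 ± 4.92, and the difference from CRT35 DMSO was not called (log2 difference -0.22, SE 0.22, adjusted p = 0.67). COL4A5, of another type IV collagen pair, rose to 2752 ± 464 in CRT35 DMSO, against 323 ± 81 in A375 parental (log2 change 3.11, adjusted p = 1.21e-07). The laminin chain LAMA4 (44000.1 ± 3588 in CRT35 DMSO and 7423 ± 1083 in A375 parental, log2 change 2.58, adjusted p = 2.05e-09), LAMB3 (log2 change 3.59, adjusted p = 3.50e-07) and the laminin-binding nidogen NID2 (11576 ± 3298 in CRT35 DMSO and 113 ± 29.7 in A375 parental, log2 change 6.66, adjusted p = 2.18e-11) rose as well.

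**Figure D2:**
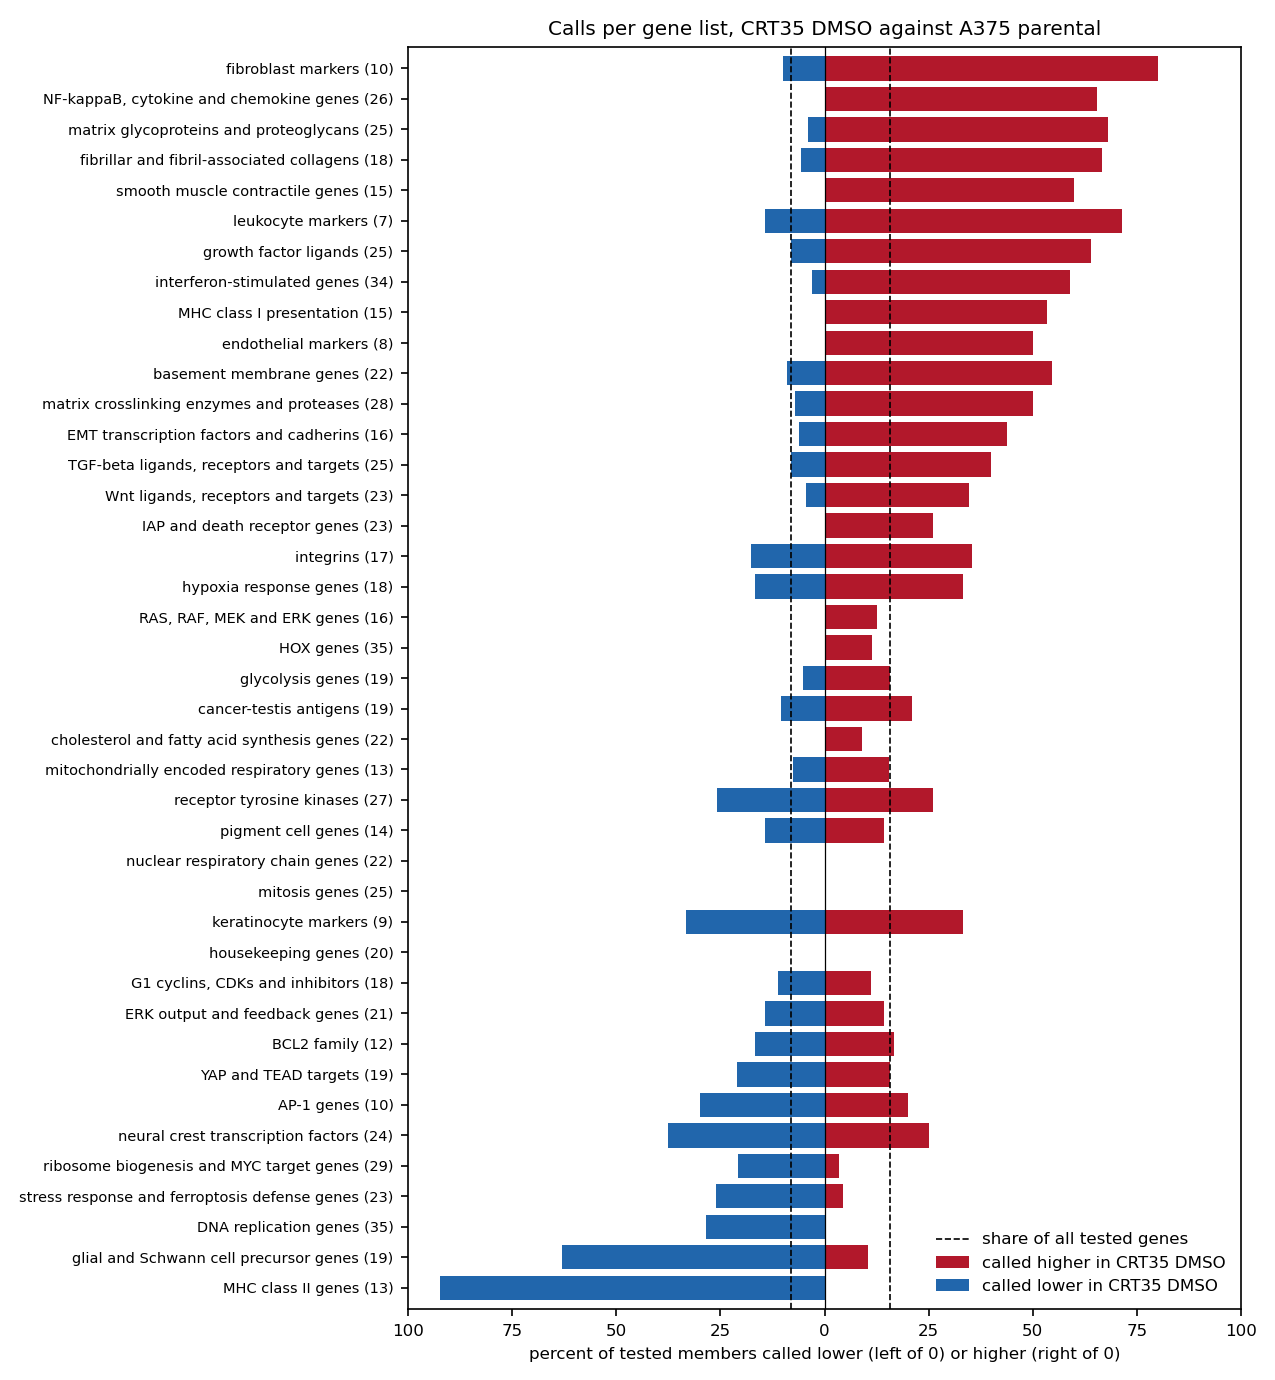
Percent of tested members called lower (blue, left of 0) or higher (red, right of 0) in CRT35 DMSO than in A375 parental for 41 gene lists, with the number of members tested in parentheses; dashed lines mark the shares over all tested genes, 7.98% and 15.7%. Matrix, cytokine, ligand and MHC class I lists lie far to the right, and MHC class II and glial lists far to the left. The mitosis, nuclear respiratory chain and housekeeping lists have no bar.

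Fibroblast markers stood out among markers of other cell types. Of 12 listed, 10 could be tested, 8 were higher and 1 lower, with a median change of 4.85. THY1, a surface glycoprotein of fibroblasts, had 43671, 40052 and 41192 in CRT35 DMSO, against 14.8, 0.929 and 2.33 in A375 parental (log2 change 13.12, SE 0.66, adjusted p = 2.05e-11). FAP, a protease of activated fibroblasts, had 2610.3, 2061 and 2287 in CRT35 DMSO, against 48.5, 53.7 and 52.9 in A375 parental (log2 change 5.46, SE 0.23, adjusted p = 1.55e-12), and PDPN had 513, 285 and 267 in CRT35 DMSO, against 0, 2.51 and 0 in A375 parental (log2 change 7.81, adjusted p = 1.62e-08). MEOX2, a homeobox factor of mesenchyme, was the member that fell, to 6.89, 2.14 and 4.97 in CRT35 DMSO, against 4696, 6320.0 and 6115 in A375 parental (log2 change -10.06, SE 0.42, adjusted p = 1.27e-12). The summed level of the 12 markers was 73847 to 85480.2 in CRT35 DMSO, against 22003 to 25216 in A375 parental. DPT was listed at 0 in both groups and SFRP2 was too low to test. THY1 averaged 1.49 in gSOX10 #2 and 2.39 in gSOX10 #4, and 31812 in CRT34 DMSO. How far cells other than melanoma cells, human or mouse, contributed to these values was not tested.

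Markers of other tissues were mixed. Of 8 endothelial genes tested, 4 were higher, led by the angiopoietin receptor TEK (3319.9, 1706 and 2275 in CRT35 DMSO and 50.7, 34.2 and 23.6 in A375 parental, log2 change 6.05, SE 0.33, adjusted p = 6.28e-11). The endothelial markers CLDN5 and ERG were listed at 0 in CRT35 DMSO, and the 11 markers summed to 3328 to 6023 in CRT35 DMSO, against 1089 to 1503 in A375 parental. Of 7 leukocyte genes tested, 5 were higher and 1 lower, and 3 were higher without CRT35 DMSO replicate 1, A375 parental replicate 1 or A375 parental replicate 3. Of the 5, CSF1R averaged 354 in CRT35 DMSO, and the other 4 averaged 4.57 to 39.3. With a pseudocount of 10, 2 of the 7 were higher and their median change was 0.71, against 1.82 with a pseudocount of 1. MS4A1 and TYROBP were at 0 in both groups, and the list summed to 327 to 617 in CRT35 DMSO and 349.6 to 492 in A375 parental, with the lysozyme gene LYZ lower (log2 change -5.54, adjusted p = 2.00e-09) and CSF1R higher (log2 change 4.73, adjusted p = 3.73e-06). Keratinocyte genes were mixed, with 3 higher and 3 lower of 9, and KRT14 listed at 0 in CRT35 DMSO, against 333 ± 32.2 in A375 parental. These markers summed to 2586 to 2880.1 in CRT35 DMSO and 2960 to 3061 in A375 parental.

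Other genes of mesenchymal and vascular support cells were among those with the largest rises. CD248, a pericyte and fibroblast surface protein, had 1106, 947 and 904 in CRT35 DMSO, against 1.06, 0 and 0 in A375 parental (log2 change 9.59, SE 0.35, adjusted p = 2.00e-13). TMEM119, known from bone-forming cells and microglia, had 1410.3, 589.6 and 807 in CRT35 DMSO, against 0, 0.553 and 0 in A375 parental (log2 change 9.56, adjusted p = 2.03e-08). PAMR1, a secreted protein first described in muscle, had 5533, 5027 and 4487 in CRT35 DMSO, against 1, 0 and 0 in A375 parental (log2 change 11.95, adjusted p = 5.19e-12). In A375 parental TMEM119 and PAMR1 were close to the lowest values that can be measured.

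Contractile genes of smooth muscle rose in 9 of 15 cases, with a median change of 1.07. MYOCD, a coactivator of smooth muscle genes, had 1237, 657 and 453 in CRT35 DMSO, against 6.24, 0 and 1.84 in A375 parental (log2 change 8.03, SE 0.63, adjusted p = 8.36e-09). Among its known targets, the light chain MYL9 (4908 ± 1466 in CRT35 DMSO and 156 ± 6.57 in A375 parental, log2 change 4.93, adjusted p = 2.05e-11) and TAGLN (3119 ± 512 in CRT35 DMSO and 200.2 ± 90.7 in A375 parental, log2 change 4.03, adjusted p = 3.81e-05) rose. Of the 15 contractile genes 6 were not called, and 7 were called higher without CRT35 DMSO replicate 1. A link of these changes to MYOCD was not tested. MYOCD, MYL9 and TAGLN were each called lower in CRT35 DMSO than in CRT34 DMSO, which averaged 13718, 22738 and 51769.

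EMT factors and cadherins were higher in 7 of 16 cases and lower in 1, with a median change of 0.82. The mesenchymal cadherins CDH11 (2303 ± 371 in CRT35 DMSO and 48.5 ± 47.5 in A375 parental, log2 change 6.16, SE 0.54, adjusted p = 4.08e-08) and CDH6 (2132, 1882 and 1887 in CRT35 DMSO and 84.8, 46.5 and 48 in A375 parental, log2 change 5.07, SE 0.38, adjusted p = 5.02e-09) rose. CDH2, which encodes N-cadherin, was not called (8935, 5881 and 6501 in CRT35 DMSO and 10478, 10462 and 10358 in A375 parental, log2 change -0.58, adjusted p = 0.0667). The EMT repressor ZEB1 was not called either (3963, 4238 and 4575 in CRT35 DMSO and 3564, 3250.0 and 3065 in A375 parental, log2 change 0.37, adjusted p = 0.381), and SNAI1 fell (396 ± 69.8 in CRT35 DMSO and 865 ± 26.3 in A375 parental, log2 change -1.14, adjusted p = 5.16e-05).

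TGF-beta genes were higher in 10 of 25 cases and lower in 2, with a median change of 0.83. The receptor TGFBR2 had 15807, 14083 and 15597 in CRT35 DMSO, against 3081, 3134 and 3409.9 in A375 parental (log2 change 2.24, SE 0.23, adjusted p = 2.46e-07), the latency protein LTBP1 had 6851 ± 1028 in CRT35 DMSO, against 225 ± 52.7 in A375 parental (log2 change 4.94, adjusted p = 1.43e-08), and the signal transducer SMAD3 had 17341 ± 822 in CRT35 DMSO, against 5430.1 ± 578 in A375 parental (log2 change 1.68, adjusted p = 9.39e-07). The feedback inhibitor PMEPA1 fell, to 527, 138 and 61.3 in CRT35 DMSO, against 2618, 2537 and 3203 in A375 parental (log2 change -4.06, SE 0.60, adjusted p = 2.46e-05), and SMAD6, an inhibitory SMAD, fell as well (log2 change -1.45, adjusted p = 2.28e-04). Of 19 YAP and TEAD targets, 3 (15.8%) were higher and 4 (21.1%) lower, with a median change of -0.13, beside 15.7% and 7.98% over all genes tested. Without A375 parental replicate 1 the median was 0.06, and 2 were higher without A375 parental replicate 2 or 3 or CRT35 DMSO replicate 1 or 3. ANKRD1 (106, 61.2 and 71.7 in CRT35 DMSO and 2643, 1547 and 1282 in A375 parental, log2 change -4.47, SE 1.37, adjusted p = 0.0132) and WWTR1, which encodes the YAP partner TAZ (11841 ± 415 in CRT35 DMSO and 48828 ± 2224 in A375 parental, log2 change -2.04, adjusted p = 2.55e-07), were lower. F3, the tissue factor gene, was called higher (log2 change 1.26, adjusted p = 0.0461) but lost the call when any 1 of 5 libraries was left out.

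Receptor tyrosine kinases moved in both directions, with 7 of 27 higher, 7 lower and a median change of 0.08. Their shares, 25.9% each, stand beside 15.7% higher and 7.98% lower over all genes tested. PDGFRA, the alpha receptor for platelet-derived growth factor, had 1654, 1449 and 1541 in CRT35 DMSO, against 72.2, 84.6 and 51.7 in A375 parental (log2 change 4.48, SE 0.43, adjusted p = 1.33e-07). PDGFRB had 7228, 4347 and 4196 in CRT35 DMSO, against 449, 597 and 621 in A375 parental (log2 change 3.21, SE 0.37, adjusted p = 1.32e-06). EGFR was well expressed in both groups and rose to 8402, 6916 and 7446 in CRT35 DMSO, against 3069, 2517 and 2368 in A375 parental (log2 change 1.52, SE 0.20, adjusted p = 8.05e-06). ROR2, a receptor for WNT5A, also rose (log2 change 4.23, adjusted p = 4.83e-06), while FGFR2, FGFR3, FGFR4 and the collagen receptor DDR1 fell. FGFR3 fell to 40.2 ± 16.5 in CRT35 DMSO, against 256 ± 22.4 in A375 parental (log2 change -2.73, adjusted p = 7.43e-05). DDR1 fell to 1054 ± 70.4 in CRT35 DMSO, against 4250.2 ± 324 in A375 parental (log2 change -2.01, adjusted p = 9.62e-05). DDR2, another collagen receptor, rose to a mean of 25772 in CRT35 DMSO, against 12128 in A375 parental (log2 change 1.09, adjusted p = 7.53e-04). AXL, a receptor often high in undifferentiated melanoma cells, was not called, with 17304, 18719 and 18825 in CRT35 DMSO and 25734, 18434 and 16724 in A375 parental (log2 change -0.13, SE 0.30, adjusted p = 0.769), and its groups overlapped.

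Growth factor ligands rose in 16 of 25 cases and fell in 2, with a median change of 1.44. HGF, the ligand of MET, had 1378, 1826 and 1590.4 in CRT35 DMSO, against 0, 1.89 and 2.85 in A375 parental (log2 change 9.48, SE 0.53, adjusted p = 8.01e-11). Of the ligands of the PDGF receptors, PDGFA rose to 1490.1 ± 91.6 in CRT35 DMSO, against 256 ± 19.8 in A375 parental (log2 change 2.54, adjusted p = 9.10e-08), and PDGFC to 2089.7 ± 265 in CRT35 DMSO, against 547 ± 41.4 in A375 parental (log2 change 1.93, adjusted p = 3.04e-07). PDGFB (means of 13.1 in CRT35 DMSO and 35.5 in A375 parental, log2 change -1.38, adjusted p = 0.0645) and PDGFD (log2 change 0.39, adjusted p = 0.135) were not called. FGF5 had 1302, 941 and 1334 in CRT35 DMSO, against 81.3, 72.3 and 62.4 in A375 parental (log2 change 4.02, SE 0.46, adjusted p = 9.85e-07). The EGFR ligand TGFA fell to 635, 426 and 407 in CRT35 DMSO, against 14230.0, 15303 and 18141 in A375 parental (log2 change -5.04, SE 0.53, adjusted p = 3.82e-07), and GDNF fell as well (log2 change -3.70, adjusted p = 5.73e-04). Other EGFR ligands were called higher, namely HBEGF (log2 change 1.87, adjusted p = 0.00368), AREG (log2 change 1.26, adjusted p = 0.0158) and EGF (log2 change 1.04, adjusted p = 0.0367), while EREG and BTC were not called. Without CRT35 DMSO replicate 1, 11 of the 25 growth factor ligands were called higher.

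Genes of the RAS, RAF, MEK and ERK proteins themselves were mostly not called (14 of 16), and the scaffold KSR1 (1413 ± 149 in CRT35 DMSO and 422 ± 18.7 in A375 parental, log2 change 1.74, adjusted p = 4.56e-06) and the MEK kinase MAP3K8 (194 ± 21 in CRT35 DMSO and 63.9 ± 6.44 in A375 parental, log2 change 1.59, adjusted p = 0.00209) rose. Output and feedback genes of ERK were mixed, with 3 of 21 (14.3%) higher, 3 lower and a median change of 0.27, and the share higher was near the 15.7% of all genes. Without A375 parental replicate 1, or with array weights, 1 was higher. DUSP6 had 17058, 14058 and 13478 in CRT35 DMSO, against 7366, 8003 and 8996 in A375 parental, a change below 2-fold that was not called (log2 change 0.87, SE 0.27, adjusted p = 0.0153). On inhibitors CRT35 had 3099.7 ± 1470.0 of DUSP6, lower than CRT35 DMSO (log2 difference 2.38, SE 0.27, adjusted p = 1.69e-04). SPRY2 was lower in CRT35 DMSO than in A375 parental (2087, 2136 and 1814 in CRT35 DMSO and 8103, 8683 and 9085 in A375 parental, log2 change -2.10, SE 0.22, adjusted p = 3.26e-07), as were the ETS factor ETV4 (log2 change -1.64, adjusted p = 4.01e-04) and MYC (492, 567 and 663 in CRT35 DMSO and 1380.1, 1462 and 1863 in A375 parental, log2 change -1.45, SE 0.41, adjusted p = 0.00859). Neither CCND1 (log2 change 0.27, adjusted p = 0.689) nor FOSL1 (log2 change -0.60, adjusted p = 0.0855) was called.

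AP-1 genes were also mixed: of 10, JUN (log2 change 1.54, adjusted p = 0.00619) and FOSL2 (log2 change 1.43, adjusted p = 1.46e-07) were higher and FOSB (log2 change -1.70, adjusted p = 6.63e-04), ATF3 (log2 change -1.33, adjusted p = 0.0284) and MAF (5.94, 1.06 and 4.92 in CRT35 DMSO and 598, 579.7 and 531 in A375 parental, log2 change -7.02, adjusted p = 1.86e-08) were lower. The call for ATF3 was lost when any 1 of 5 libraries was left out. The AP-1 shares, 20% higher and 30% lower, stand beside 15.7% and 7.98% over all genes tested. Of 23 Wnt genes, 8 were higher and 1 lower, with a median change of 0.18, and 5 were higher without CRT35 DMSO replicate 1. WNT5A, a ligand of noncanonical signaling, had 20620.3, 9925 and 11146 in CRT35 DMSO, against 3139.9, 3084 and 2946 in A375 parental (log2 change 2.11, SE 0.43, adjusted p = 6.80e-04). The Wnt antagonist SFRP1 fell to 3069, 4637 and 3612 in CRT35 DMSO, against 9332, 10878 and 11302 in A375 parental (log2 change -1.49, SE 0.41, adjusted p = 0.00696).

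Cytokines and targets of NF-kappaB were higher in 17 of 26 cases, with a median change of 1.77, and 11 were called higher without CRT35 DMSO replicate 1. Beyond the list, IL33, an alarmin of barrier tissues and stroma, had 6362, 2649 and 3011 in CRT35 DMSO and was listed at 0 in all A375 parental libraries (adjusted p = 9.52e-11). IL1B had 18682, 6522 and 8308 in CRT35 DMSO, against 127, 161 and 98.2 in A375 parental (log2 change 6.30, SE 0.61, adjusted p = 1.28e-07). The adhesion molecule VCAM1, also not on the list, had 10817, 5269 and 7184 in CRT35 DMSO, against 0, 11.1 and 3.26 in A375 parental (log2 change 10.96, SE 0.73, adjusted p = 9.59e-10), and IL6 had 3185, 562 and 679.7 in CRT35 DMSO, against 9.17, 51.9 and 54.8 in A375 parental (log2 change 5.10, adjusted p = 3.43e-04). In IL33, IL1B, VCAM1, IL6 and IL32 (4944, 2254 and 3230.2 in CRT35 DMSO and 26.1, 86.8 and 112 in A375 parental, log2 change 5.68, adjusted p = 2.94e-06) the highest CRT35 DMSO library was replicate 1, and the groups did not overlap.

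**Figure D3:**
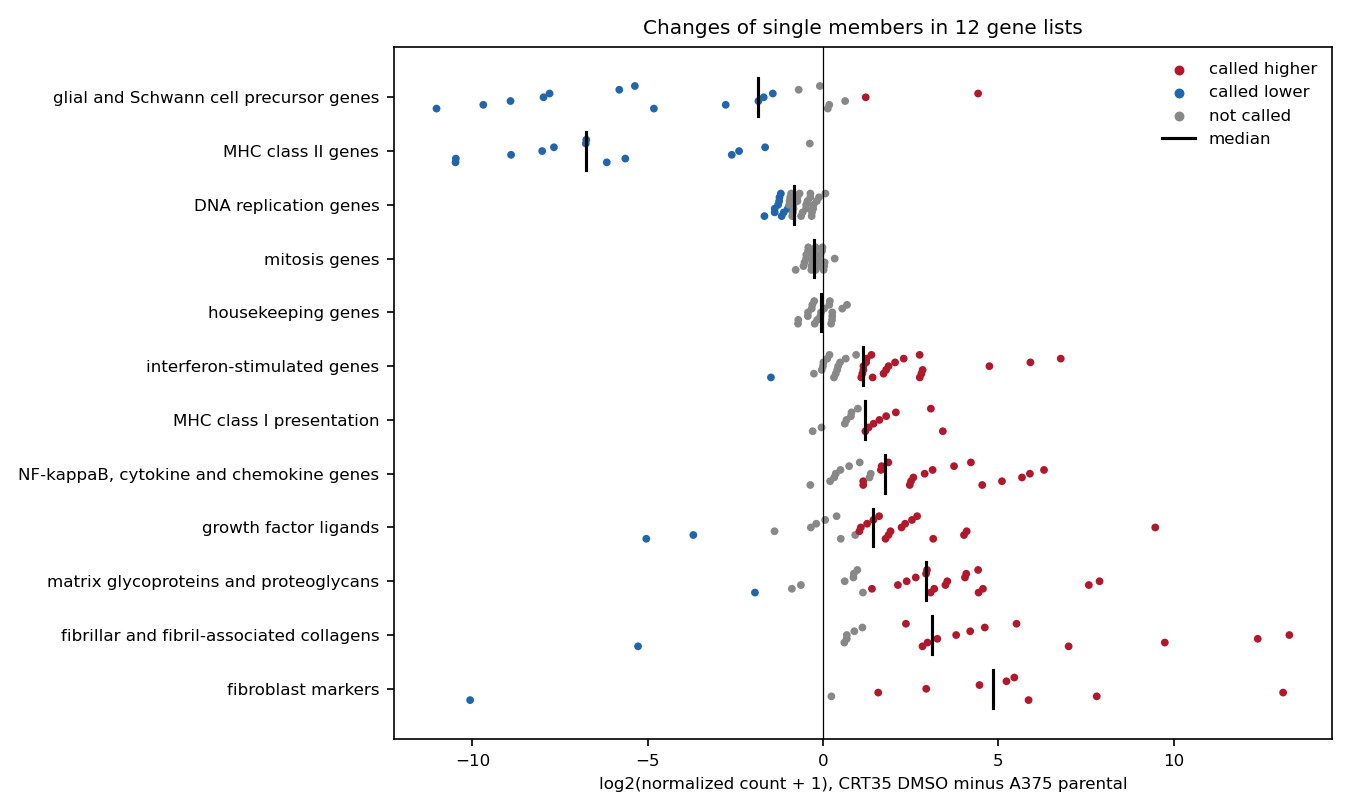
Change of each tested member of 12 gene lists, as log2(normalized count + 1) in CRT35 DMSO minus A375 parental on the horizontal axis; points are genes (red called higher, blue called lower, grey not called) and black bars are list medians. Medians run from -6.75 for MHC class II genes to 4.85 for fibroblast markers, and mitosis and housekeeping genes cluster near 0.

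Inhibitor of apoptosis and death receptor genes were higher in 6 of 23 cases (26.1%), beside 15.7% over all genes tested, with a median change of 0.41. Without CRT35 DMSO replicate 1, 2 of the 23 were higher, beside 2633 of 19290 genes tested. BIRC3, which encodes cIAP2, a ubiquitin ligase that restrains TNF-induced cell death, had 8134, 3202 and 5047 in CRT35 DMSO, against 241, 1104 and 1652 in A375 parental (log2 change 2.74, SE 0.71, adjusted p = 0.00421). Its groups did not overlap, and its values varied more within each group than those of its relatives. BIRC2, which encodes cIAP1, had 12317, 8265 and 10328 in CRT35 DMSO and 8698, 6938 and 7501 in A375 parental and was not called (log2 change 0.41, SE 0.18, adjusted p = 0.0845). XIAP had 7728, 7214 and 8180.3 in CRT35 DMSO and 5714, 4474 and 4734 in A375 parental and was not called (log2 change 0.64, SE 0.27, adjusted p = 0.0643). TNF itself rose to 603, 265 and 340.0 in CRT35 DMSO, against 0, 10.2 and 19.2 in A375 parental (log2 change 5.96, SE 0.90, adjusted p = 2.83e-05). The caspase-like inhibitor CFLAR (log2 change 1.07, adjusted p = 4.21e-05), CASP10 (log2 change 1.11, adjusted p = 0.00326) and the deubiquitinase CYLD (log2 change 1.05, adjusted p = 0.00256) were just above 2-fold and lost the call without CRT35 DMSO replicate 1.

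In the BCL2 family, BCL2 was lower (409 ± 55.3 in CRT35 DMSO and 971 ± 115 in A375 parental, log2 change -1.25, adjusted p = 0.00424) and the proapoptotic BMF higher (451 ± 310.0 in CRT35 DMSO and 106 ± 25.9 in A375 parental, log2 change 1.91, adjusted p = 0.00368). Of 12 members, 2 (16.7%) were called in each direction, beside 15.7% higher and 7.98% lower over all genes tested. Among death receptors, FAS had 4256, 4317 and 4412 in CRT35 DMSO, against 1579.7, 1364 and 1379 in A375 parental (log2 change 1.59, SE 0.19, adjusted p = 2.23e-06), and TNFRSF10B had 19535 ± 1714 in CRT35 DMSO and 9235 ± 137 in A375 parental (log2 change 1.08, adjusted p = 1.61e-06).

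Antigen presentation genes moved in opposite directions by class. MHC class II molecules, which present peptides to CD4+ T cells and are switched on by CIITA, were lower in 12 of 13 cases, with a median change of -6.75 (-5.90 without the 3 genes listed at 0 in CRT35 DMSO). HLA-DRA had 11.4, 10.9 and 14 in CRT35 DMSO, against 19192, 18513 and 18196 in A375 parental (log2 change -10.48, SE 0.29, adjusted p = 3.97e-15). The invariant chain CD74 had 913, 625 and 449 in CRT35 DMSO, against 43281, 43381 and 50923 in A375 parental (log2 change -6.17, SE 0.27, adjusted p = 2.93e-12). CIITA, the coactivator on which the class II genes depend, had 47.3 ± 22.1 in CRT35 DMSO and 2211 ± 355 in A375 parental (SD, n = 3 each, log2 change -5.64, adjusted p = 8.96e-09). HLA-DRB1 had 0, 0 and 1.01 in CRT35 DMSO, against 1792, 1751 and 1827 in A375 parental (adjusted p = 1.05e-11), but near-identical DRB genes share reads and their values are uncertain. HLA-DPA1 kept 1587, 1832 and 1690.4 in CRT35 DMSO, against 10649, 10339 and 10005 in A375 parental (log2 change -2.60, SE 0.11, adjusted p = 1.15e-12), and HLA-DPB1 was the member not called.

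MHC class I genes, which present peptides to CD8+ T cells, were higher in 8 of 15 cases and lower in none, with a median change of 1.21. HLA-B, whose reads can be confused with those of related class I genes, had 28488, 22414 and 20846 in CRT35 DMSO, against 2757, 1896 and 2086 in A375 parental (log2 change 3.42, SE 0.22, adjusted p = 6.83e-10). B2M, the light chain common to class I molecules, had 145578, 143831 and 139888 in CRT35 DMSO, against 50270.3, 45802 and 44817 in A375 parental (log2 change 1.61, SE 0.13, adjusted p = 1.20e-08), and the peptide transporter TAP1 had 4110.5 ± 222 in CRT35 DMSO and 1669 ± 95.8 in A375 parental (log2 change 1.30, adjusted p = 1.40e-07). Interferon-stimulated genes were higher in 20 of 34 cases and lower in 1, with a median change of 1.15. BST2, which tethers budding viruses, had 6851, 6270.4 and 5585 in CRT35 DMSO, against 80.5, 113 and 116 in A375 parental (log2 change 5.92, SE 0.26, adjusted p = 2.93e-12). OAS2 (2503 ± 80.6 in CRT35 DMSO and 365 ± 91.8 in A375 parental, log2 change 2.81, adjusted p = 9.79e-10), SAMD9L (log2 change 2.76, adjusted p = 2.87e-08) and the RNA sensor RIGI (log2 change 2.06, adjusted p = 9.95e-08) rose, and CMPK2 fell (log2 change -1.48, adjusted p = 2.35e-04).

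Some replication genes fell, and mitosis genes showed no called change. Of 35 DNA replication genes, 10 were lower and none higher, with a median change of -0.84. MCM2, a subunit of the replicative helicase, had 4271, 6675 and 5592 in CRT35 DMSO, against 18464, 16259 and 17125 in A375 parental (log2 change -1.67, SE 0.26, adjusted p = 3.68e-05). PCNA, the sliding clamp, had 7447, 10373 and 9200.5 in CRT35 DMSO, against 24846, 21792 and 23006 in A375 parental (log2 change -1.38, SE 0.18, adjusted p = 5.12e-06). MKI67, the proliferation marker, had 21562, 28821 and 32455 in CRT35 DMSO and 40794, 28396 and 30603 in A375 parental, with overlapping groups (log2 change -0.27, SE 0.41, adjusted p = 0.627). None of 25 mitosis genes was called by limma, and 1 had an unadjusted p under 0.05, with a median change of -0.26.

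Among G1 regulators, CDKN1A, which encodes the CDK inhibitor p21, rose to 24531, 20431 and 17386 in CRT35 DMSO, against 5269.8, 4922 and 5015 in A375 parental (log2 change 2.02, SE 0.42, adjusted p = 7.96e-04), and the transcription factor E2F1 fell to 1087 ± 167 in CRT35 DMSO, against 2808 ± 227 in A375 parental (log2 change -1.38, adjusted p = 0.00381). CCND3 (log2 change 0.02, adjusted p = 0.932), CDKN1B (log2 change -0.07, adjusted p = 0.813) and RB1 (log2 change -0.38, adjusted p = 0.104) were not called. CCND2 had 23, 7.44 and 9.91 in CRT35 DMSO and was listed at 0 in A375 parental (adjusted p = 0.00376). Ribosome biogenesis genes and MYC targets were lower in 6 of 29 cases (20.7%) and higher in 1 (3.45%), with a median change of -0.77. Over all genes 7.98% were lower and 15.7% higher. The nucleolar protein NOP56 had 8996, 10705 and 9512 in CRT35 DMSO, against 37820.5, 28419.7 and 29939 in A375 parental (log2 change -1.71, SE 0.25, adjusted p = 2.26e-05), and GNL3 had 7468 ± 442 in CRT35 DMSO and 19289 ± 1245 in A375 parental (log2 change -1.37, adjusted p = 3.50e-07), while ODC1 rose (log2 change 1.23, adjusted p = 7.83e-04).

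Most genes on the metabolic lists were not called. None of 22 nuclear respiratory chain genes was called by limma, although 8 had an unadjusted p under 0.05. Of 13 mitochondrially encoded genes 2 (15.4%) were higher and 1 (7.69%) lower, near the 15.7% and 7.98% of all genes. The median change of these 13 was 0.53, against 0.02 over all genes. In limma 10 of the 13 had an adjusted p of 0.05 or less, beside 8135 of 19290 genes tested. MT-CO2 had 145248 ± 319 in CRT35 DMSO and 43489 ± 6579 in A375 parental (log2 change 1.75, adjusted p = 2.57e-07). MT-ND6 was lower (log2 change -1.34, adjusted p = 0.00206), but it lies on the strand opposite its neighbors and the sources disagree on whether the libraries were stranded, so its value is uncertain. SLC16A3, a lactate exporter, rose to 3831, 3136 and 2774 in CRT35 DMSO, against 276, 321 and 376 in A375 parental (log2 change 3.32, SE 0.18, adjusted p = 5.71e-11), whereas the glucose transporter SLC2A1 (log2 change -1.30, adjusted p = 2.66e-07) and the hexokinase HK2 (log2 change -1.30, adjusted p = 1.71e-05) fell. Of the 19 genes on the glycolysis list, which does not hold all of these, 3 (15.8%) were higher and 1 (5.26%) lower, with a median change of 0.06. Of 23 stress and ferroptosis defense genes, 6 (26.1%) were lower and 1 (4.35%) higher, with a median change of -0.28. The subunits of the cystine transporter both fell, SLC7A11 to 4019.7, 2634 and 3609 in CRT35 DMSO, against 12556, 11678 and 9518 in A375 parental (log2 change -1.73, SE 0.36, adjusted p = 7.32e-04), and SLC3A2 to 6272, 5089.8 and 5528 in CRT35 DMSO, against 31559, 22486 and 20523 in A375 parental (log2 change -2.12, SE 0.37, adjusted p = 1.30e-04). Of 22 cholesterol and fatty acid synthesis genes 2 were higher, the sterol carrier STARD4 (log2 change 2.47, adjusted p = 1.39e-06) and INSIG1 (log2 change 1.41, adjusted p = 7.02e-04). Their share of 9.09% was below the 15.7% of all genes.

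Hypoxia response genes were higher in 6 of 18 cases (33.3%) and lower in 3 (16.7%), with a median change of 0.19. These shares stand beside 15.7% and 7.98% over all genes tested. Without CRT35 DMSO replicate 1 or A375 parental replicate 2, 4 hypoxia response genes were higher. The collagen prolyl hydroxylase subunit P4HA2 rose to 9971 ± 2487 in CRT35 DMSO, against 2229 ± 359 in A375 parental (log2 change 2.15, adjusted p = 6.27e-08), and the hormone gene STC2 to 11344 ± 3541 in CRT35 DMSO, against 2668 ± 230.1 in A375 parental (log2 change 2.05, adjusted p = 1.48e-04). HOX genes were mostly not called, with 4 of 35 (11.4%) higher, below the 15.7% of all genes. HOXA11 led them (365 ± 15.4 in CRT35 DMSO and 79.4 ± 12.5 in A375 parental, log2 change 2.20, adjusted p = 1.22e-06). Of 19 cancer-testis antigens, 4 (21.1%) were higher and 2 (10.5%) lower, with a median change of 0.11, beside 15.7% and 7.98% over all genes. None was lower without A375 parental replicate 2 or CRT35 DMSO replicate 3, and 1 was lower without A375 parental replicate 1, A375 parental replicate 3 or CRT35 DMSO replicate 2. CTAG2 had 1733, 1650.3 and 1500.2 in CRT35 DMSO, against 2.74, 6.01 and 4.35 in A375 parental (log2 change 8.29, SE 0.46, adjusted p = 7.99e-11), although its close relatives can share reads and the value is uncertain on that account.

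Genes switched fully on or off were few. Of all genes in the files, 22 were listed at 0 in all CRT35 DMSO libraries while averaging at least 100 in A375 parental, and 20 of these were protein-coding. Beside SOX10, CDH19, S100B, TFAP2B and FABP7 they included the mucin MUC5B (1559, 1252 and 1179 in A375 parental; adjusted p = 1.18e-12) and ANKRD30A, a breast differentiation antigen (718, 686 and 660.0 in A375 parental; adjusted p = 8.21e-15). Conversely, 19 genes, 15 of them protein-coding, were listed at 0 in all A375 parental libraries and averaged at least 100 in CRT35 DMSO. After IL33 the highest was BDKRB1, the inducible bradykinin receptor, with 2533, 1697 and 1891 in CRT35 DMSO (adjusted p = 2.02e-10). ATP8B1, a phospholipid flippase, had 1163, 947 and 1547 (adjusted p = 8.57e-12), TMEM204 had 907, 617 and 618 (adjusted p = 5.42e-14), and the chemokine CCL7 had 679, 202 and 290.0 (adjusted p = 1.07e-07). The count of genes switched on was 14 without CRT35 DMSO replicate 1 and 34 without A375 parental replicate 2.

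Among long noncoding RNAs, 477 of 2792 tested (17.1%) were higher and 261 (9.35%) lower, close to the 15.7% and 7.98% of all genes. DNM3OS, which hosts microRNAs of mesenchymal cells, had 1004, 611 and 758 in CRT35 DMSO, against 0, 0.966 and 1.79 in A375 parental (log2 change 8.78, adjusted p = 1.18e-12). LINC01139 had 671, 621 and 604 in CRT35 DMSO and was listed at 0 in A375 parental. LINC01419 fell to 91.6, 86.4 and 73.9 in CRT35 DMSO, against 13937, 14253 and 14048 in A375 parental (log2 change -7.38, SE 0.25, adjusted p = 8.32e-14).

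To find what set CRT35 apart, each gene was also compared with the other groups grown without inhibitors. Against CRT34 DMSO 1565 genes (8.11%) were called, 712 higher (3.69%) and 853 lower (4.42%) in CRT35 DMSO. Against gSOX10 #2 3534 were called (18.3%, made up of 8.77% higher and 9.55% lower), and against gSOX10 #4 3973 (20.6%, made up of 12.3% higher and 8.34% lower). Genes called in the same direction against A375 parental, both clones and CRT34 DMSO numbered 206 higher (1.07%) and 137 lower (0.71%). These comparisons share the CRT35 DMSO libraries. Without CRT35 DMSO replicate 1 the counts were 145 and 148.

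Genes higher in CRT35 DMSO than in every other group without inhibitors included CTAG2. It was at 1628 ± 118 in CRT35 DMSO and at means of 0.676 in CRT34 DMSO, 0.388 in gSOX10 #2, 0.372 in gSOX10 #4 and 4.37 in A375 parental. PAMR1 had 5016 ± 523 in CRT35 DMSO and 393 ± 209 in CRT34 DMSO (log2 difference 3.83, SE 0.55, adjusted p = 1.06e-04). PIK3CG, a PI3-kinase catalytic subunit of leukocytes, had 1217, 1381 and 1314 in CRT35 DMSO, against 10.2, 2.56 and 5.06 in A375 parental (log2 change 7.71, SE 0.99, adjusted p = 4.42e-06) and a mean of 30.8 in CRT34 DMSO. MXRA8, a matrix remodeling protein and alphavirus receptor, had 588 ± 131 in CRT35 DMSO, 11.1 ± 1.47 in CRT34 DMSO and 1.52 ± 1.7 in A375 parental. CDA, which deaminates cytidine, had 1861 ± 69.9 in CRT35 DMSO, 291 ± 69.6 in CRT34 DMSO and 16 ± 3.56 in A375 parental.

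COL4A1, COL4A2 and MEOX2 were among the genes lower in CRT35 DMSO than in every other group without inhibitors. MEOX2 was at 4.67 ± 2.39 in CRT35 DMSO, 636 ± 122 in CRT34 DMSO, 498 ± 73.3 in gSOX10 #2, 672 ± 306 in gSOX10 #4 and 5710.4 ± 884 in A375 parental. ANKRD30A was at 0 in CRT35 DMSO and at a mean of 117 in CRT34 DMSO. AGMO, an ether lipid monooxygenase, had 16.4 ± 8.04 in CRT35 DMSO, 161 ± 31.9 in CRT34 DMSO and 1763 ± 405 in A375 parental.

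**Figure D4:**
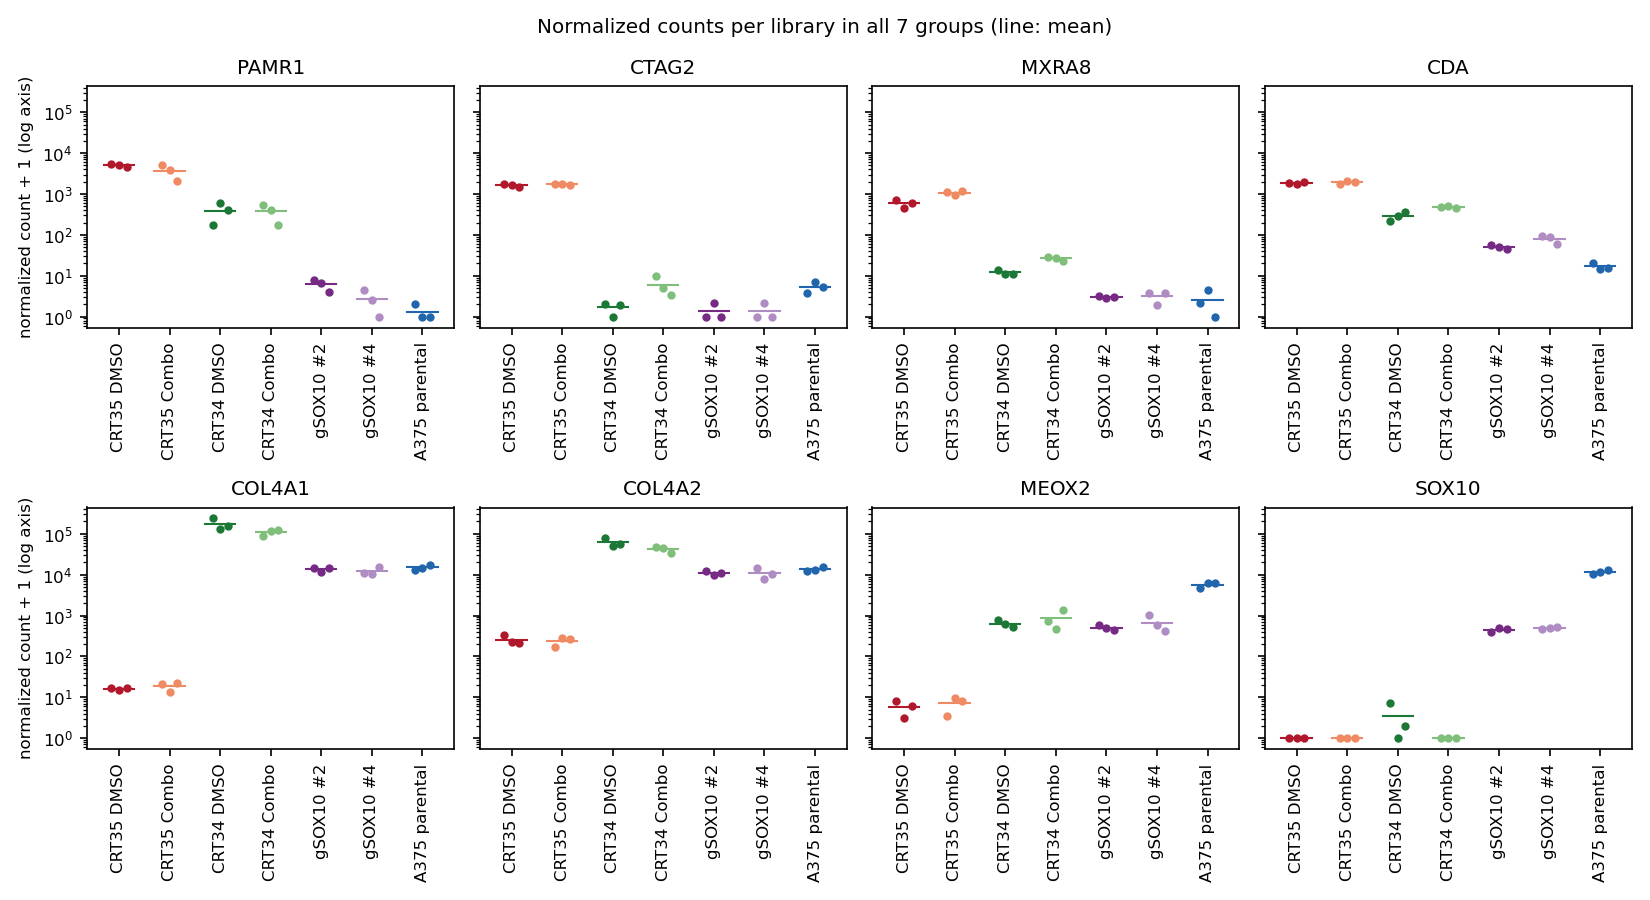
Normalized count plus 1 of each library in all 7 groups on a log axis, for 4 genes set apart as high in CRT35 (upper row), and for COL4A1, COL4A2, MEOX2 and SOX10 (lower row); points are libraries and lines are means of 3. COL4A1 averages 15.1 in CRT35 DMSO and 175767 in CRT34 DMSO, on either side of A375 parental.

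Against the same line on both inhibitors, 219 genes (1.14%) were called, 125 higher (0.648%) and 94 lower (0.487%) in CRT35 DMSO. This count was 97 without CRT35 Combo replicate 1 (76 higher and 21 lower), 119 without CRT35 Combo replicate 3 (67 and 52), 100 without CRT35 DMSO replicate 2 (76 and 24) and 109 without CRT35 DMSO replicate 3 (76 and 33). Without CRT35 DMSO replicate 1 it was 206, and the balance turned, with 83 higher and 123 lower. Genes higher without inhibitors included SOX9 (log2 difference 1.48, SE 0.23, adjusted p = 0.00242), DUSP6, SPRY2 (log2 difference 1.73, SE 0.22, adjusted p = 2.64e-04), ITGA2 (log2 difference 2.33, SE 0.44, adjusted p = 0.0103) and IL33, which had 4007 ± 2047 in CRT35 DMSO and 400.5 ± 264 in CRT35 Combo (log2 difference 3.54, SE 0.67, adjusted p = 0.0103). SOX10 stayed at 0, 0 and 0 in the CRT35 Combo libraries.

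Changes were not spread evenly over the genome. Over 12953 genes that averaged at least 100, the median change was -0.04, 12.4% were called higher and 6.93% lower. Chromosome 13 had a median of -0.63 over 233 genes, of which 30.5% were lower. Chromosome 3 had a median of -0.50, with 19.8% of 723 genes lower, and chromosome 20 a median of -0.47, with 14.7% of 333 genes lower. Chromosome 14 had the highest median, 0.35 over 428 genes, of which 18.5% were higher. Over all 638 genes of chromosome 5 the median was 0.14, with 19.6% higher, but in its windows at 0 to 20, 20 to 40 and 40 to 60 Mb the medians were 0.66, 0.84 and 0.59, while no window of chromosome 14 was above 0.51. Within chromosome 13 the medians were -1.18 over 46 genes between 100 and 120 Mb, the window that holds COL4A1 and COL4A2, and -1.13 over 25 genes between 80 and 100 Mb, with 26 and 15 genes lower. The medians of chromosomes 3, 13, 14 and 20 kept their sign when any 1 of the 6 libraries was left out. DNA copy number was not measured, and its part in these shifts was not tested.

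**Figure D5:**
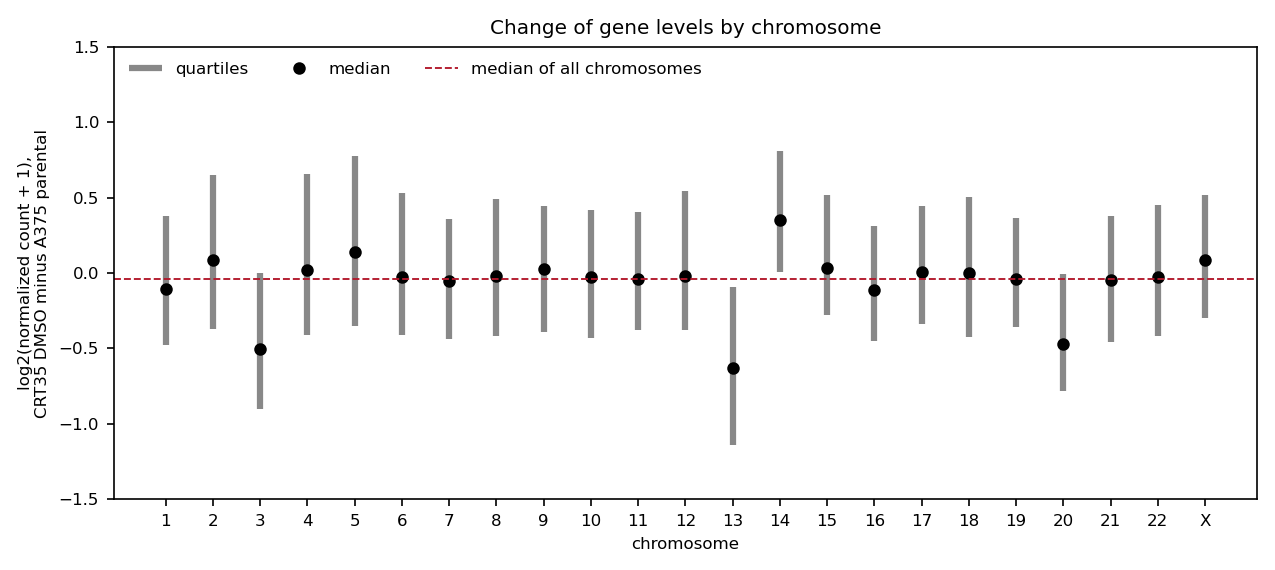
Change in log2(normalized count + 1), CRT35 DMSO minus A375 parental, by chromosome for genes averaging at least 100; points are medians, grey bars run between quartiles and the dashed line is the median of all such genes, -0.04. Chromosomes 3, 13 and 20 lie below 0 and chromosome 14 above it.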

How the data were processed

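RNA-seq of CRT35 DMSO and A375 parental cells was analysed with 3 libraries per group. Per the labels and the study's methods, reads were aligned with STAR 2.6.1a to GRCh38, quantified with RSEM and normalized with DESeq2. The deposited value per gene has the unit of a signal, an estimated count divided by a library size factor; it was not converted back to whole reads, so no count model was used and no counting interval is given. The labels and the methods name different TruSeq kits, and only the kit in the methods is stranded.

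Genes with a value of 10 or more in at least 3 of 21 libraries were tested (19290 of 32889 with any value above 0). On log2(value + 1), limma 3.58.1 (R 4.3.3) fitted a mean per group over all 21 libraries, with 14 residual degrees of freedom and an intensity trend, and p-values were adjusted by Benjamini-Hochberg over all genes tested. Calls required an adjusted p of at most 0.05 together with a 2-fold difference. Of 58870 gene identifiers, 58472 matched GENCODE version 44, which gave names, types and chromosomes; chromosomes and 20 Mb windows stand in for chromosome arms. The test was checked only on simulated data with few changed genes, none of them low in A375 parental. That check does not cover genes near 0 in a group.

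Genes named were SOX10, the 15 protein-coding genes with the largest change in each direction (not overlapping, mean of 500 or more), 6 silent and 6 switched on, 8 set apart in each direction, 3 long noncoding RNAs in each direction, up to 4 members of each list in each direction by lowest p, and 25 genes of the study's interest. SOX2, SOX5, IL6, CIITA, HLA-DPB1, HBEGF, AREG, EGF, EREG, BTC, PDGFB, PDGFD and DDR2 were named after their values were seen. Of 881 members in 42 lists, 879 were matched and 840 tested; some genes and 1 list are not reported here. The comparison, the members and the lists were chosen with earlier results of these data known. Replicate numbers do not pair CRT35 DMSO with A375 parental. Alternatives were no filter, a filter on the compared groups, a pseudocount of 10, only the compared groups in the fit, a replicate block, equal totals, quantile normalization, array weights and leaving out each library.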

Additional observations from a re-analysis of the deposited data

Results flagged for a closer look

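Genes called in opposite directions against A375 parental in the tolerant lines, and called between them, numbered 22 (0.114% of genes tested), 8 of them higher and 14 lower in CRT35 DMSO. Of these, 3 are named in the report, and the direct comparison of CRT35 DMSO with CRT34 DMSO is given for each. COL4A1 averaged 15.1 in CRT35 DMSO and 175767 in CRT34 DMSO, with A375 parental at 15189.7 (log2 difference -13.38, SE 0.22, adjusted p = 9.61e-19). COL4A2 averaged 255 in CRT35 DMSO and 62909 in CRT34 DMSO, with A375 parental at 13725 (log2 difference -7.94, SE 0.24, adjusted p = 3.07e-14). CTAG2 averaged 1628 in CRT35 DMSO and 0.676 in CRT34 DMSO, with A375 parental at 4.37 (log2 difference 9.99, SE 0.46, adjusted p = 5.29e-11).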

How the results depend on the processing

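The count of genes called between CRT35 DMSO and A375 parental lay between 3895 and 5042 under all alternatives (4059 to 4511 with 1 library left out), and no call changed sign. With the replicate block it was 4521. Same-numbered libraries of CRT35 DMSO and A375 parental did not deviate together (r = -0.054, -0.024 and -0.032), so the numbers do not pair these groups. Against CRT35 Combo r was 0.085, -0.002 and 0.097, and against gSOX10 #4 it was 0.076, 0.016 and 0.053. Against CRT34 DMSO r was 0.015, 0.032 and -0.019. Of 233 named genes that were called, 212 kept the call under every alternative, 21 lost it under at least 1, 18 of them without 1 library, and none reversed. KRT5, F3, ATF3 and SSX1 lost it most often.

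The 343 genes set apart became 574 with array weights, whose fit did not fully converge, and 272 to 344 with 1 library left out. The 219 calls against CRT35 Combo became 76 with only the compared groups in the fit (43 higher and 33 lower), 1517 with array weights (428 and 1089), and 97 to 206 with 1 library left out. Genes switched on numbered 35 at a mean of 50 and 14 to 34 with 1 library left out; silent genes numbered 33 at a mean of 50 and 22 to 28 with 1 library left out. The median of chromosome 3 was -0.46 after rescaling to equal totals. Of 27 list counts of 5 or more, recounted without CRT35 DMSO replicate 1 after the data were seen, 23 stayed within 1.5 times; the others were Wnt genes (5 higher), IAP and death receptor genes (2), NF-kappaB and cytokine genes (11) and leukocyte markers (3). Low depth in CRT35 DMSO replicate 1 limits what can be said of genes listed at 0.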
